A study of Homo sapiens with 12 samples.

Results

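Epithelial junction and polarity genes were followed in human prostate cancer cells after an siRNA against the transcription factor GATA2. The listed genes were CLDN3, CLDN4, CLDN7, OCLN, TJP1, TJP3, F11R, CDH1, EPCAM and LIN7A. Members were those with an array probe of that symbol detected (detection p under 0.05) on at least 3 of the 12 arrays. CLDN3 passed this filter through the MDVR arrays alone, since it was undetected on all 6 Abl arrays, and the other 6 genes were detected in both lines. This gave 7 genes of the 11933 with a kept probe, read by 10 probes of the 22539 kept from 47323. All 10 annotated probes of the listed genes passed, while OCLN, TJP3 and F11R had no probe in the annotation table and were not analysed here. Illumina BeadChips measured RNA of 4 groups with 3 arrays each, taken 72 h after transfection with 25 nM of a single Stealth siRNA against GATA2 (siGATA2) or of a non-targeting control (siNT). The groups were MDVR siGATA2, MDVR siNT, Abl siGATA2 and Abl siNT. MDVR cells are LNCaP cells kept for over a year in enzalutamide, an androgen receptor antagonist, at 25 µM and held at 10 µM during the experiments, in medium with 10% fetal bovine serum. Abl cells (LNCaP-abl) are an LNCaP derivative grown without phenol red in 10% charcoal-stripped serum, which is depleted of steroid hormones. Line, serum and drug thus differed together and cannot be told apart in any comparison of the lines, and each line is 1 resistant derivative of the same parent. The labels do not say whether the 3 samples of a group were separate cultures, so p-values measure the spread between these samples, which may be technical.

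Epithelial cells are held together near their apical side by tight junctions and, just below them, by adherens junctions. Claudins are membrane proteins that seal the tight junction, the TJP (ZO) scaffolds tie them to actin, and E-cadherin, encoded by CDH1, joins neighbouring cells at the adherens junction through its link to catenins. LIN7 proteins are small adaptors that bind the PALS1 polarity complex, and luminal prostate cells, from which LNCaP derives, carry these junctions in their polarised glandular layer.

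The deposited intensities are on a linear scale. Values below are background-corrected, quantile-normalized log2 intensities, and a difference of groups is a log2 difference from a limma fit over all 12 arrays. A probe counted as called if its Benjamini-Hochberg adjusted p over all 22539 probes was under 0.05. Between 19103 and 20513 probes were detected per array, and arrays correlated at r = 0.989 to 0.992 within a group, at 0.977 to 0.986 across siRNAs of a line and at 0.928 to 0.946 across lines. Of the 9 luminal prostate markers, 7 were detected on every array of MDVR siGATA2, Abl siGATA2 and Abl siNT, all but KLK2 and KLK3, and all 9 in MDVR siNT. Neither of the 2 annotated fibroblast markers had a probe that passed the detection filter. Of 2 annotated leukocyte markers LCP1, which some cancer cells also express, was detected on every array of all 4 groups. No basal or endothelial marker on the lists was annotated.

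GATA2 itself, the siRNA's target, read 9.09, 8.80 and 8.86 on MDVR siGATA2 arrays, against 8.88, 9.16 and 9.26 on MDVR siNT arrays, and these ranges overlapped. Its log2 difference in MDVR was -0.18 (adjusted p = 0.355). In Abl, GATA2 read 8.43, 8.58 and 8.48 under siGATA2 and 9.12, 8.80 and 8.82 under siNT, without overlap, and fell by 0.41 (SE 0.12, adjusted p = 0.0147). The Abl call was lost without Abl siNT replicate 1 (-0.31, adjusted p = 0.0800) and without Abl siGATA2 replicate 2 (-0.38, adjusted p = 0.0587). The RNA knockdown at 72 h was therefore not called in the MDVR groups, and the MDVR results below are those of the samples labelled siGATA2.

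After siGATA2, CDH1 and CLDN7 rose and TJP1 fell in both lines. LIN7A fell in MDVR, and EPCAM rose in Abl. CLDN4 did not pass the test in either line, nor did CLDN3 in MDVR. In Abl CLDN3 was undetected on every array, so a change there could not be tested. Of the 10 member probes, 3 were called higher and 3 lower in MDVR, where 7.96% of all kept probes were called higher and 7.53% lower. In Abl, 5 of the 9 member probes detected in both lines were called higher and 1 lower. Of all kept probes, 10.7% were called higher and 11.4% lower there. The members thus took both directions, so a median says little of any one of them. Over the 6 member genes detected in both lines, a restriction added after seeing the data, the median log2 difference was -0.11 in MDVR, against -0.0027 over the 11356 genes so detected, and 0.16 in Abl, against 0.0016. The 2 groups did not overlap at 7 of the 10 probes in MDVR and at 6 of the 9 in Abl, where 30.8% and 35.9% of all probes did not overlap. Members and lists were chosen with earlier results of these data known, so shares here and below are a description and no test. RNA was taken from whole cultures, in which fewer cells carrying a transcript and less of it per cell cannot be told apart.

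**Figure D1:**
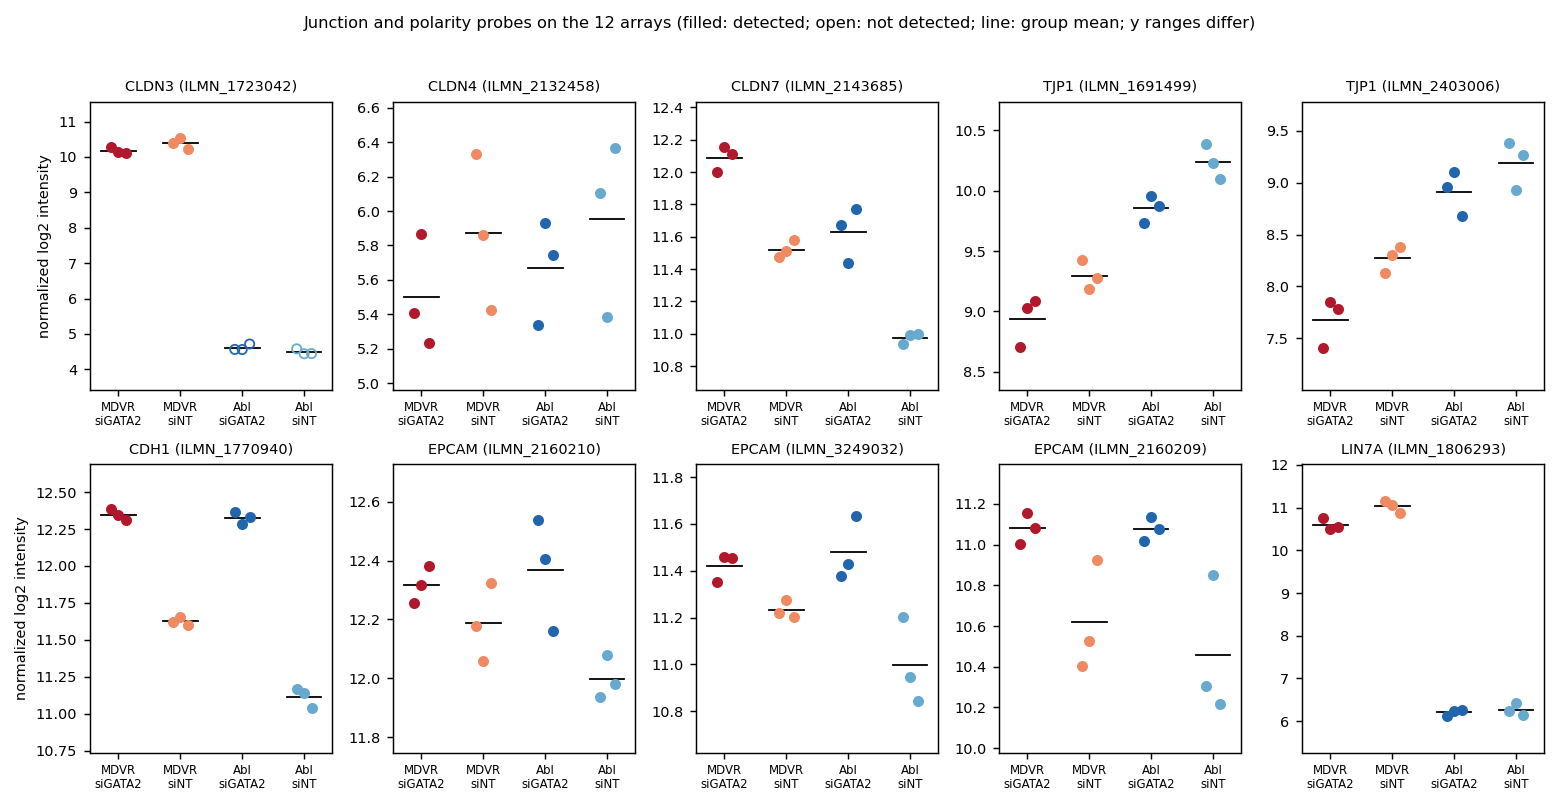
Normalized log2 intensity (y axis, ranges differ by panel) of each member probe on each of the 12 arrays, with the groups on the x axis, filled points for detected and open points for undetected probes, and a line at each group mean of 3 arrays. CDH1 and CLDN7 lay higher in both siGATA2 groups than in their siNT groups, and CLDN3 and LIN7A separated the 2 lines, with CLDN3 not detected on any Abl array.

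The plot of member values by sample gives each probe its own y range, so that heights may be compared between groups for a probe but not between probes. The adherens junction cadherin CDH1 had the clearest response. CDH1 (probe ILMN_1770940) read 12.39, 12.34 and 12.31 in MDVR siGATA2, against 11.62, 11.66 and 11.60 in MDVR siNT. Every siGATA2 array lay above every siNT array, and the difference was 0.72 (SE 0.07, 1.65-fold, adjusted p = 2.6e-07). The Abl siGATA2 arrays gave 12.37, 12.28 and 12.33 for CDH1, against 11.16, 11.14 and 11.04 in Abl siNT. These groups also stood apart, with a difference of 1.21 (SE 0.07, 2.32-fold, adjusted p = 8.63e-11).

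The CDH1 response was smaller in MDVR than in Abl. The MDVR effect minus the Abl effect was -0.49 (SE 0.09, 95% interval -0.69 to -0.30, adjusted p = 0.00355). CDH1 was the single call among the 9 member probes detected in both lines. This test called 3.88% of all probes, and 1.66% in this direction. Under siGATA2 the CDH1 means were 12.35 ± 0.04 in MDVR and 12.33 ± 0.04 in Abl (SD, n = 3 each). Their difference was 0.02, with a 95% interval of -0.12 to 0.16 (adjusted p = 0.845). Under siNT the means were 11.63 ± 0.03 in MDVR and 11.11 ± 0.07 in Abl (SD, n = 3 each), a difference of 0.51 (SE 0.07, adjusted p = 2.58e-06). The order of the 4 levels was therefore MDVR siGATA2 and Abl siGATA2 at the top, with overlapping arrays, then MDVR siNT, then Abl siNT, with no overlap between these 3 steps.

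**Figure D2:**
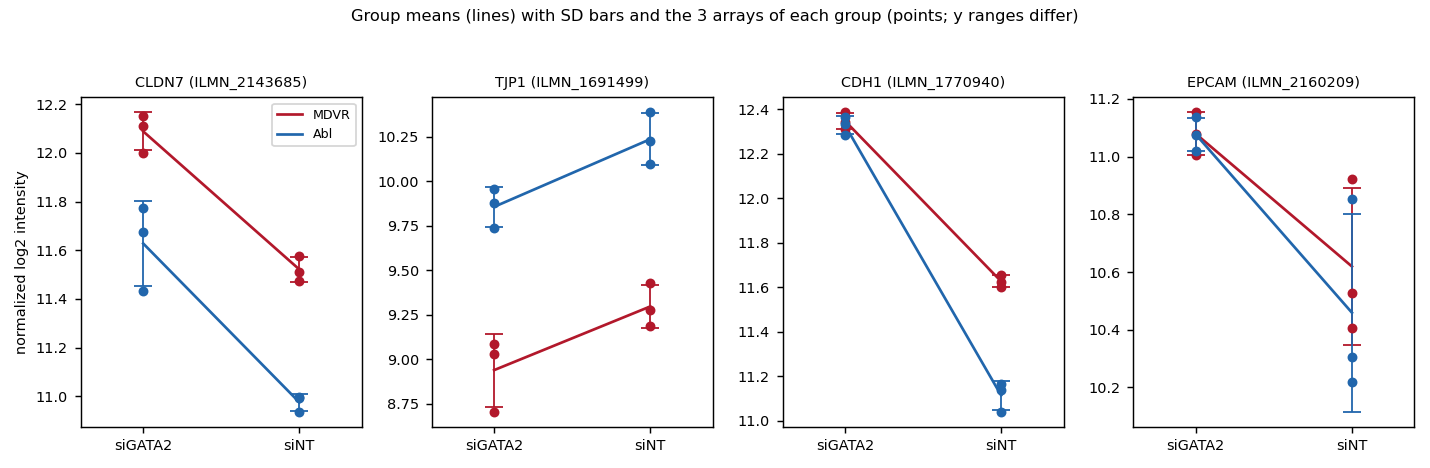
Normalized log2 intensity (y axis, ranges differ by panel) of CLDN7, TJP1, CDH1 and 1 EPCAM probe under siGATA2 and siNT (x axis), with points for arrays, lines joining the group means and bars for 1 SD of 3 arrays. The CDH1 lines meet under siGATA2 and lie 0.51 apart under siNT, while the CLDN7 and TJP1 lines run nearly parallel.

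EPCAM, a homophilic adhesion molecule of epithelial cells that is known to act beside claudins, was read by 3 probes. The brightest of these, ILMN_2160210, read 12.26, 12.32 and 12.38 in MDVR siGATA2, against 12.18, 12.06 and 12.32 in MDVR siNT. These ranges overlapped, and the difference of 0.13 did not pass the test (95% interval -0.06 to 0.32, adjusted p = 0.384). In Abl, ILMN_2160210 read 12.54, 12.40 and 12.16 under siGATA2 and 11.94, 12.08 and 11.98 under siNT, without overlap. The Abl difference was 0.37 (SE 0.09, 1.29-fold, adjusted p = 0.00496).

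The other EPCAM probes were also higher in Abl siGATA2, ILMN_3249032 by 0.48 (SE 0.09, adjusted p = 0.000504) and ILMN_2160209 by 0.62 (SE 0.14, adjusted p = 0.00214). For MDVR, ILMN_2160209 read 11.00, 11.15 and 11.08 under siGATA2 and 10.40, 10.53 and 10.92 under siNT, a difference of 0.46 (SE 0.14, adjusted p = 0.0246). That call was lost in 7 alternatives, among them the fits without MDVR siNT replicate 2 (0.35, adjusted p = 0.138) or replicate 3 (0.41, adjusted p = 0.0946) and without MDVR siGATA2 replicate 2 (0.42, adjusted p = 0.0918) or replicate 3 (adjusted p = 0.0575). At ILMN_3249032 the MDVR difference was 0.19 (adjusted p = 0.181), although the groups did not overlap. EPCAM thus rose at all 3 probes in Abl and at 1 of 3 in MDVR, while the difference between the 2 effects was called at none of its probes (adjusted p = 0.355, 0.233 and 0.735). The 3 EPCAM probes averaged per gene gave 0.26 in MDVR (adjusted p = 0.0212).

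Of the 3 claudins, CLDN7 was the one whose RNA rose. CLDN7, a claudin of many simple epithelia, read 12.00, 12.15 and 12.11 in MDVR siGATA2, against 11.47, 11.51 and 11.58 in MDVR siNT, a difference of 0.57 (SE 0.08, 1.48-fold, adjusted p = 6.71e-05). The values were 11.68, 11.43 and 11.77 in Abl siGATA2 and 10.94, 10.99 and 11.00 in Abl siNT, a difference of 0.65 (SE 0.08, 1.57-fold, adjusted p = 6.95e-06). In neither line did the siRNA groups overlap. The MDVR effect minus the Abl effect was -0.09, with a 95% interval of -0.33 to 0.16 (adjusted p = 0.771).

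CLDN3, a sealing claudin of simple epithelia, read 10.29, 10.15 and 10.11 in MDVR siGATA2, against 10.39, 10.55 and 10.21 in MDVR siNT. The ranges overlapped and the difference of -0.20 did not pass the test (SE 0.13, 95% interval -0.47 to 0.07, adjusted p = 0.341). Neither Abl group had a CLDN3 signal above background, so no fold is given there. CLDN4, a claudin known to tighten the barrier to sodium, read 5.41, 5.87 and 5.23 in MDVR siGATA2, against 6.33, 5.86 and 5.42 in MDVR siNT. Its Abl values were 5.34, 5.93 and 5.74 under siGATA2 and 6.10, 5.39 and 6.37 under siNT. Groups overlapped in both lines. The CLDN4 differences were -0.37 in MDVR (95% interval -0.92 to 0.18, adjusted p = 0.409) and -0.28 in Abl (95% interval -0.83 to 0.27, adjusted p = 0.506). CLDN4 was detected on all 12 arrays but dimly, and its intervals were the widest among the member genes' main probes, reaching down to -0.92 in MDVR and -0.83 in Abl.

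TJP1 encodes ZO-1, the scaffold that binds claudins and actin, and had 2 probes. The brighter, ILMN_1691499, read 8.70, 9.03 and 9.08 in MDVR siGATA2, against 9.43, 9.18 and 9.28 in MDVR siNT. It fell by 0.36 (SE 0.11, adjusted p = 0.0302), with no overlap. In Abl, ILMN_1691499 read 9.74, 9.96 and 9.87 under siGATA2 and 10.39, 10.23 and 10.09 under siNT, and fell by 0.38 (SE 0.11, adjusted p = 0.0156), again with no overlap. The second probe, ILMN_2403006, read 7.40, 7.85 and 7.78 in MDVR siGATA2, against 8.13, 8.31 and 8.38 in MDVR siNT, and fell by 0.60 (SE 0.14, adjusted p = 0.00655). For Abl it gave 8.96, 9.10 and 8.68 under siGATA2 and 9.38, 8.93 and 9.27 under siNT, which overlapped, with a difference of -0.28 (adjusted p = 0.179).

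The TJP1 calls at ILMN_1691499 depended on single arrays and on the model. Without the variance trend the adjusted p was 0.091 in MDVR and 0.0557 in Abl, and without the detection filter it was 0.0517 in MDVR. With replicate number as a block within each line, the TJP1 differences were -0.25 in MDVR (adjusted p = 0.236) and -0.31 in Abl (adjusted p = 0.0965). Only replicates 2 and 3 occur in both siRNA groups of a line. That fit therefore rests on these replicates, and the other arrays add nothing to its differences. With the block across the 4 groups the adjusted p was 0.14 in MDVR and 0.0583 in Abl. Whether the replicate numbers pair the samples is not known. The MDVR call at ILMN_2403006 was also lost with the block within each line (-0.40, adjusted p = 0.068). At ILMN_1691499 the MDVR call was lost without MDVR siGATA2 replicate 1 (-0.24, adjusted p = 0.172). That call was also lost without MDVR siNT replicate 2 (-0.29, adjusted p = 0.138) or MDVR siNT replicate 4 (-0.37, adjusted p = 0.0652). The Abl call at ILMN_1691499 was lost without Abl siGATA2 replicate 2 (-0.32, adjusted p = 0.0811) or Abl siNT replicate 1 (-0.30, adjusted p = 0.0747). The difference between the lines' effects was 0.02 at ILMN_1691499 (95% interval -0.30 to 0.35, adjusted p = 0.965) and -0.32 at ILMN_2403006 (adjusted p = 0.456).

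LIN7A encodes an adaptor of the PALS1 polarity complex. The LIN7A probe read 10.76, 10.49 and 10.55 in MDVR siGATA2, against 11.16, 11.07 and 10.89 in MDVR siNT. LIN7A fell by 0.44 in MDVR (SE 0.11, 73.8% of the siNT level, adjusted p = 0.0098), with no overlap. Without MDVR siNT replicate 2 the value was -0.38 (adjusted p = 0.0636), and without MDVR siGATA2 replicate 2 it was also -0.38 (adjusted p = 0.0571). Abl arrays gave 6.12, 6.23 and 6.27 under siGATA2 and 6.25, 6.42 and 6.14 under siNT, overlapping values near the low end of the scale, with a difference of -0.06 (95% interval -0.29 to 0.17, adjusted p = 0.766). The MDVR effect minus the Abl effect was -0.38 (adjusted p = 0.206). On the authors' deposited processed values the LIN7A difference between the effects was -0.39 and passed the test (adjusted p = 0.043).

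**Figure D3:**
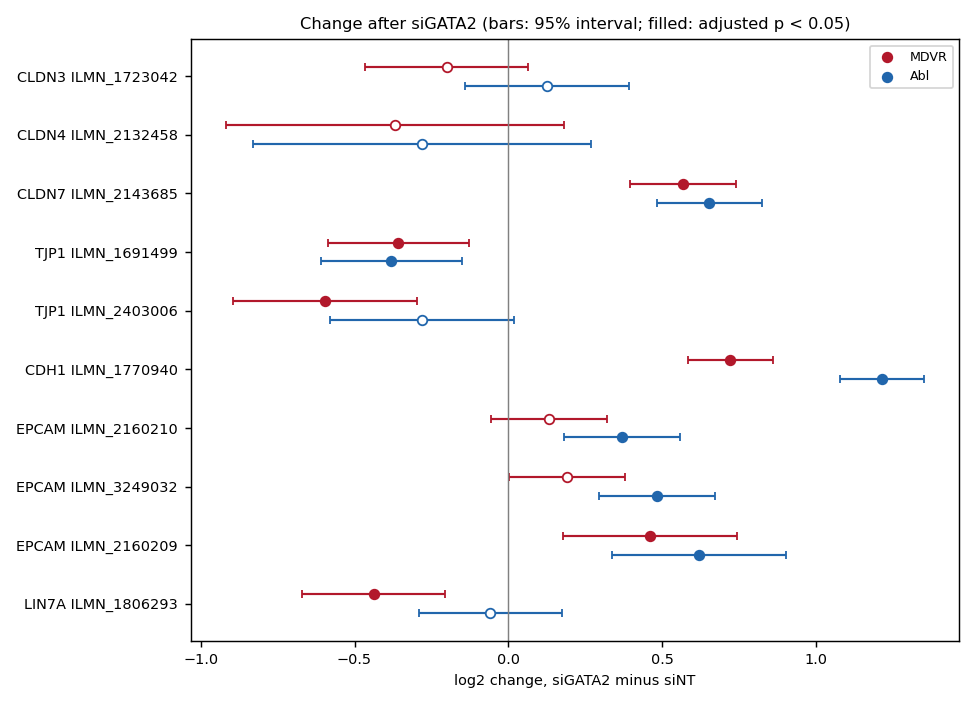
Log2 difference of siGATA2 minus siNT (x axis) for each member probe in MDVR and in Abl, with points for the fitted value, bars for its 95% interval and filled points for adjusted p under 0.05. CDH1 and CLDN7 lie to the right of 0 in both lines and TJP1 to the left, and the CLDN3 point for Abl is a fitted value from arrays on which the probe was not detected.

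The plot of siRNA effects sets both lines side by side. Probes called higher in both lines were those of CDH1, CLDN7 and EPCAM ILMN_2160209, or 3 of the 9 detected in both lines, against 4.26% of all probes. TJP1 ILMN_1691499 was the 1 member probe called lower in both lines, against 4.38% of all probes. These shares are a description and no test, since the members were chosen with earlier results of these data known. The 2 comparisons share no arrays.

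The lines differed most at CLDN3 and LIN7A, which were far higher in MDVR. CLDN3 was kept through MDVR alone and so had to differ here, and the counts that follow leave it out. Of the other 9 member probes, 4 were higher and 2 lower in MDVR than in Abl under siNT, where 20.9% of all probes were called higher and 20.2% lower. Under siGATA2, 2 were higher and 2 lower, against 23.8% and 21.5% of all probes. MDVR and Abl did not overlap at 5 of these 9 probes under siNT and at 4 under siGATA2, beside 48.8% and 52.7% of all probes. The shares of all probes include probes detected in a single line, which the 9 member probes leave out. Over the 6 genes the median difference was -0.02 under siGATA2, against 0.03 over the 11356 genes detected in both lines, and 0.35 under siNT, against 0.02. The line comparisons use the same arrays as the siRNA comparisons, and the values of each are given side by side.

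CLDN3 was detected on all 6 MDVR arrays and on 0 of 6 Abl arrays. In Abl the CLDN3 probe read 4.56, 4.56 and 4.71 under siGATA2 and 4.58, 4.44 and 4.44 under siNT, beside the MDVR values of 10.11 to 10.55 given above. As deposited, the CLDN3 intensities were 1243 to 1372 in MDVR siGATA2 and 121 to 132 in Abl siGATA2, and 1434 to 1695 in MDVR siNT and 111 to 115 in Abl siNT. CLDN3 was at least 34.0-fold higher in MDVR than in Abl under siGATA2 and at least 38.9-fold higher under siNT. These sizes are a description, with no test, because detection in MDVR alone is what kept the probe. Each bound sets the MDVR mean against, for each Abl array, the dimmest detected probe on that array or the CLDN3 value if that was brighter. The bounds hold for this background correction. The fitted differences of 5.57 and 5.90 were 2.69 and 2.92 on the authors' deposited processed values.

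LIN7A was detected on all 12 arrays. Set against the Abl values above, the LIN7A level was higher in MDVR by 4.39 under siGATA2 (SE 0.11, 20.98-fold, adjusted p = 5.68e-17) and by 4.77 under siNT (SE 0.11, 27.3-fold, adjusted p = 1.38e-17). On the authors' processed values these were 2.72 and 3.11. All 6 MDVR arrays lay at 10.49 or above, and all 6 Abl arrays at 6.42 or below. Neither CLDN3 nor LIN7A had a second probe by which to check the size.

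CLDN7 was higher in MDVR by 0.46 under siGATA2 (SE 0.08, 1.38-fold, adjusted p = 0.000102) and by 0.55 under siNT (SE 0.08, 1.46-fold, adjusted p = 1.71e-05), without overlap in either pair. From top to bottom the CLDN7 group means were 12.09 in MDVR siGATA2, 11.63 in Abl siGATA2, 11.52 in MDVR siNT and 10.98 in Abl siNT, and the middle groups overlapped. CDH1 was called between the lines under siNT and not under siGATA2, as given above.

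TJP1 ran the other way. At ILMN_1691499 the MDVR minus Abl difference was -0.92 under siGATA2 (SE 0.11, 52.9% of the Abl level, adjusted p = 7.88e-07) and -0.94 under siNT (SE 0.11, 52.1% of the Abl level, adjusted p = 6.48e-07). At ILMN_2403006 the differences were -1.23 (adjusted p = 5.24e-07) and -0.92 (adjusted p = 2.5e-05). All MDVR arrays lay below all Abl arrays at both TJP1 probes. The main-probe order was Abl siNT, Abl siGATA2, MDVR siNT and MDVR siGATA2, from high to low, with no overlap between neighbours.

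EPCAM differed little between the lines. Its 3 probes gave -0.05, -0.06 and 0.00 under siGATA2 (adjusted p = 0.696, 0.642 and 0.992) and 0.19, 0.23 and 0.16 under siNT (adjusted p = 0.105, 0.0433 and 0.381). The 1 call, at ILMN_3249032, was lost in 14 of 25 alternatives. Scaling arrays to a common median in place of quantile normalization gave 0.37 for the main EPCAM probe under siNT (adjusted p = 0.00289). That scaling also moved the median of all probes to 0.12 under siNT, against 0.0257 with quantile normalization. CLDN4 was not called between the lines, with differences of -0.17 under siGATA2 (95% interval -0.72 to 0.38, adjusted p = 0.644) and -0.08 under siNT (95% interval -0.63 to 0.47, adjusted p = 0.843).

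**Figure D4:**
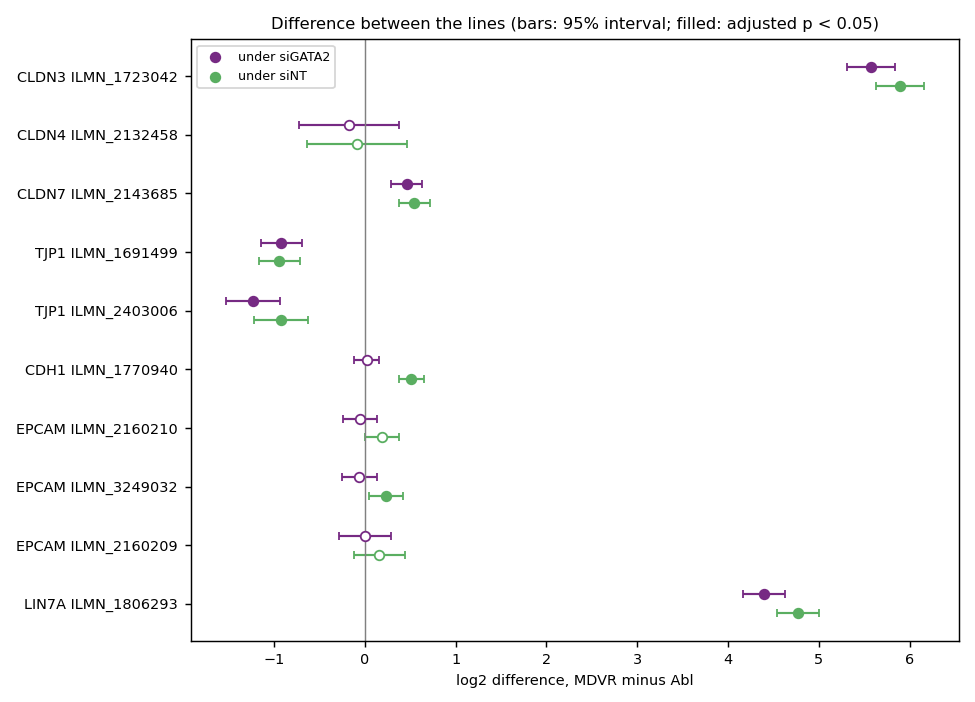
Log2 difference of MDVR minus Abl (x axis) for each member probe under siGATA2 and under siNT, with bars for the 95% interval and filled points for adjusted p under 0.05. CLDN3 and LIN7A lie more than 4 log2 units to the right of 0, TJP1 lies to the left, and CDH1 is right of 0 under siNT alone. The CLDN3 points are fitted values against undetected Abl arrays.

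Start-site sequences are shown for the 2 genes that separated the lines most and, for comparison, for CLDN7 and TJP1, which were called in opposite directions. They are the 250 bases before the outermost annotated start, 5′ to 3′ on the gene's strand, from RefSeq on GRCh38.p14, which held such windows for 7 of the 10 listed genes. CLDN3 lies on the minus strand of chr7:73770271-73770520, LIN7A on the minus strand of chr12:80937935-80938184, CLDN7 on the minus strand of chr17:7263214-7263463 and TJP1 on the minus strand of chr15:29969050-29969299. Capitals mark a match to the E-box CACCTG or its reverse complement CAGGTG, the motif that SNAI and ZEB repressors of epithelial genes are known to bind.
CLDN3: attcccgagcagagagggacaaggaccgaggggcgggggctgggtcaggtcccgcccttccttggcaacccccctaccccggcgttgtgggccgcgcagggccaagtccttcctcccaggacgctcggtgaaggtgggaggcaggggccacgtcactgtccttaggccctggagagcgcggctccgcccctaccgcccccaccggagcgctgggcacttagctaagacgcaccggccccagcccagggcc
LIN7A: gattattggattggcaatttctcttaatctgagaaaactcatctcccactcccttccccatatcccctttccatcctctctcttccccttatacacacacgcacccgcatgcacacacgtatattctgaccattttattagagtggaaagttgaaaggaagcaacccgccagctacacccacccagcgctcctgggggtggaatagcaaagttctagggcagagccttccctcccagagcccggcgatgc
CLDN7: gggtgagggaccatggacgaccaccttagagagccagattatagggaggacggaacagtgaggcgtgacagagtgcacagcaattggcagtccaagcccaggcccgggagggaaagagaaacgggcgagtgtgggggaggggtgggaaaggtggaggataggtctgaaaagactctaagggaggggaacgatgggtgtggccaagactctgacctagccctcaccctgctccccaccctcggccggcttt
TJP1: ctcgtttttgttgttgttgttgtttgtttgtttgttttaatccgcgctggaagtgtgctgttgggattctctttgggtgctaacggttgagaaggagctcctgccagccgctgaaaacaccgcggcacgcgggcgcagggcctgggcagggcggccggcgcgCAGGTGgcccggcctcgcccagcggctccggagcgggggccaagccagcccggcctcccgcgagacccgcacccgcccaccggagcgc

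The CLDN3 window was 71.6% G or C with 19 CpG, and the LIN7A window 51.2% with 7 CpG, against medians of 58.0% and 11 CpG over 35116 promoters. CLDN7 had 60.4% and 9 CpG, and TJP1 66.8% and 26 CpG. The E-box was found once, in the TJP1 window, with its first base at -88, and 17.5% of all promoters held it. Another annotated CLDN7 start had 4 E-box matches. GATA motifs (the letters AGATAA, the letters AGATAG, the letters TGATAA or the letters TGATAG), read on both strands and free to overlap, were in none of these windows and in 22.3% of all promoters. Such matches describe the letters of a short window only. CLDN3 and CLDN4 are neighbours on chromosome 7, where the CLDN4 window had no E-box and 58.8% G or C. CLDN3 was detected in MDVR alone, and CLDN4 was detected in both lines and not called between them.

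Other genes of the same structures were taken from lists made by function. Among other tight junction genes, 14 of 20 were measured, and by the main probe 4 were higher and 1 lower after siGATA2 in MDVR, and 3 higher and 1 lower in Abl. Over all 11933 genes, 10.3% were called higher and 9.28% lower in MDVR, and 13.6% and 14.6% in Abl. The list medians were 0.07 in MDVR and 0.20 in Abl. Without Abl siGATA2 replicate 2 or 4, MDVR siNT replicate 2 or 4, or MDVR siGATA2 replicate 2, the MDVR calls were 3 higher and 0 lower. Of these calls, CGNL1 (0.33) and VAPA (-0.48) in MDVR were lost when no detection filter was applied (adjusted p = 0.0773 and 0.07). CLDN12, an atypical claudin, read 11.27, 11.31 and 11.14 in MDVR siGATA2, against 9.88, 10.21 and 10.06 in MDVR siNT, and rose by 1.19 (SE 0.09, adjusted p = 1.03e-08). It read 11.58, 11.59 and 11.51 in Abl siGATA2 and 10.53, 10.43 and 10.56 in Abl siNT, a rise of 1.05 (SE 0.09, adjusted p = 2.04e-08). CXADR, an adhesion receptor of the tight junction, rose by 0.80 in MDVR and 0.97 in Abl, and CLDN23 by 0.66 and 0.60.

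CLDN8 went the other way. In Abl its main probe read 7.43, 7.59 and 7.36 under siGATA2, against 9.29, 9.04 and 9.02 under siNT, and fell by 1.66 (SE 0.13, adjusted p = 2e-08). In MDVR its arrays read 5.67 to 5.76 under siGATA2 and 5.98 to 6.15 under siNT, a difference of -0.36 that did not pass (adjusted p = 0.076) at the main probe. The second CLDN8 probe, ILMN_1746676, fell in both lines, by 0.63 in MDVR (SE 0.18, adjusted p = 0.0187) and by 1.37 in Abl (SE 0.18, adjusted p = 1.01e-05). The MDVR effect minus the Abl effect was 1.29 at the main probe (SE 0.19, adjusted p = 0.000276) and 0.74 at the second, where it was not called (adjusted p = 0.115). The claudins measured here therefore moved in both directions after siGATA2.

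Among adherens junction genes, 13 of 15 were measured. In MDVR 0 were higher and 1 lower, and in Abl 2 were higher and 0 lower, with medians of -0.13 and 0.06. Over all genes, 10.3% were called higher and 9.28% lower in MDVR, and 13.6% and 14.6% in Abl. The Abl calls were NECTIN3 (0.70, adjusted p = 0.049, 0.0764 without the detection filter, and not called at its second probe) and the actin crosslinker ACTN4 (0.34, adjusted p = 0.00617). The 1 that fell in MDVR was CTNNB1, the cadherin-binding catenin that also carries Wnt signals, at -0.90 by its main probe (SE 0.125, adjusted p = 4.18e-05). Its 3 probes ranged from -0.90 to 0.15 there, and 2 were called lower. In Abl the main CTNNB1 probe differed by -0.22 and was not called, while 1 of the 3 probes, ILMN_1757350, fell by 0.43 (adjusted p = 0.0244). Leaving out any of 8 arrays left 1 adherens junction call in Abl, ACTN4, those arrays being Abl siGATA2 replicate 3 or 4, Abl siNT replicate 2 or 3, MDVR siNT replicate 4 and MDVR siGATA2 replicate 1, 2 or 3. By main probe, CDH1 and its catenin partner thus had called differences of opposite sign in MDVR.

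Desmosomes are the spot junctions anchored to keratins. Of 10 measured desmosome genes of 12 listed, 1 was higher and 2 lower in MDVR, and 1 higher and 1 lower in Abl. These counts stand beside 10.3% higher and 9.28% lower over all genes in MDVR, and 13.6% and 14.6% in Abl. DSP, the plaque protein desmoplakin, fell by 0.66 in MDVR (SE 0.12, adjusted p = 0.000844), PKP4 fell by 0.68 in MDVR and by 0.26 in Abl (adjusted p = 0.0491), and DSC2, a desmosomal cadherin, rose by 0.51 in Abl (SE 0.12, adjusted p = 0.00412). PERP was the 1 desmosome gene higher in MDVR, by 0.46 (SE 0.12, adjusted p = 0.00947). The PKP4 call in Abl was lost when any of 11 of the 12 arrays was left out, all but Abl siNT replicate 1.

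Cell polarity genes gave 18 measured of 20, with 3 higher and 0 lower in MDVR and 3 higher and 2 lower in Abl. Among all genes, 10.3% were called higher and 9.28% lower in MDVR, and 13.6% and 14.6% in Abl. LIN7C, a paralogue of LIN7A, rose by 0.91 in MDVR (SE 0.13, adjusted p = 6.21e-05) and by 0.79 in Abl (SE 0.13, adjusted p = 0.000156) at its main probe. Its second probe was called in Abl but not in MDVR. Without Abl siGATA2 replicate 2 the polarity genes called in Abl were 2 higher and 1 lower. LIN7A and LIN7C therefore had called differences of opposite sign in MDVR. PARD6A, a scaffold of the PAR complex, was higher by 0.39 in MDVR and 0.55 in Abl at its main probe and was not called at its second. PALS1 rose by 0.48 in MDVR (SE 0.10, adjusted p = 0.0031). In Abl, PALS2 fell by 0.54 (SE 0.12, adjusted p = 0.00346) and PRKCI by 0.35 (SE 0.11, adjusted p = 0.01985).

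Of the transcription and splicing regulators of epithelial genes, 8 of 9 were measured, with 0 higher and 2 lower in each line. For the lists in this paragraph, the shares over all genes were 10.3% higher and 9.28% lower in MDVR, and 13.6% and 14.6% in Abl. GRHL2, a transcription factor known to drive CDH1 and claudin genes, fell by 0.41 in Abl (SE 0.10, adjusted p = 0.00642) and by 0.33 in MDVR (SE 0.10, adjusted p = 0.0307), the MDVR call being lost without the detection filter (adjusted p = 0.0666). EHF, an epithelial ETS factor, fell by 0.96 in MDVR (SE 0.15, adjusted p = 0.000111), and OVOL2 fell by 0.41 in Abl. Without MDVR siNT replicate 2 or 3 or MDVR siGATA2 replicate 2, 1 regulator was called lower in MDVR. Of 14 genes of the mesenchymal transition, 4 were measured and limma called 0 in either line, with 0 in MDVR and 1 in Abl (FOXC2) under 0.05 before adjustment. Among genes of the epithelial cell surface, 13 of 14 were measured, with 3 higher and 2 lower in MDVR and 4 higher and 1 lower in Abl. Without MDVR siGATA2 replicate 2 the surface genes called in MDVR were 2 higher and 1 lower. The protease inhibitor SPINT2 fell by 1.89 in MDVR and by 2.44 in Abl. By main probe, MAL2 rose by 0.36 in MDVR and 0.37 in Abl, and ERBB3 by 0.43 and 0.53. ERBB3 was called at 1 of its 3 probes in each line. PRSS8 rose by 0.46 in MDVR, and CD24 by 0.83 in Abl at 1 of its 2 probes.

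**Figure D5:**
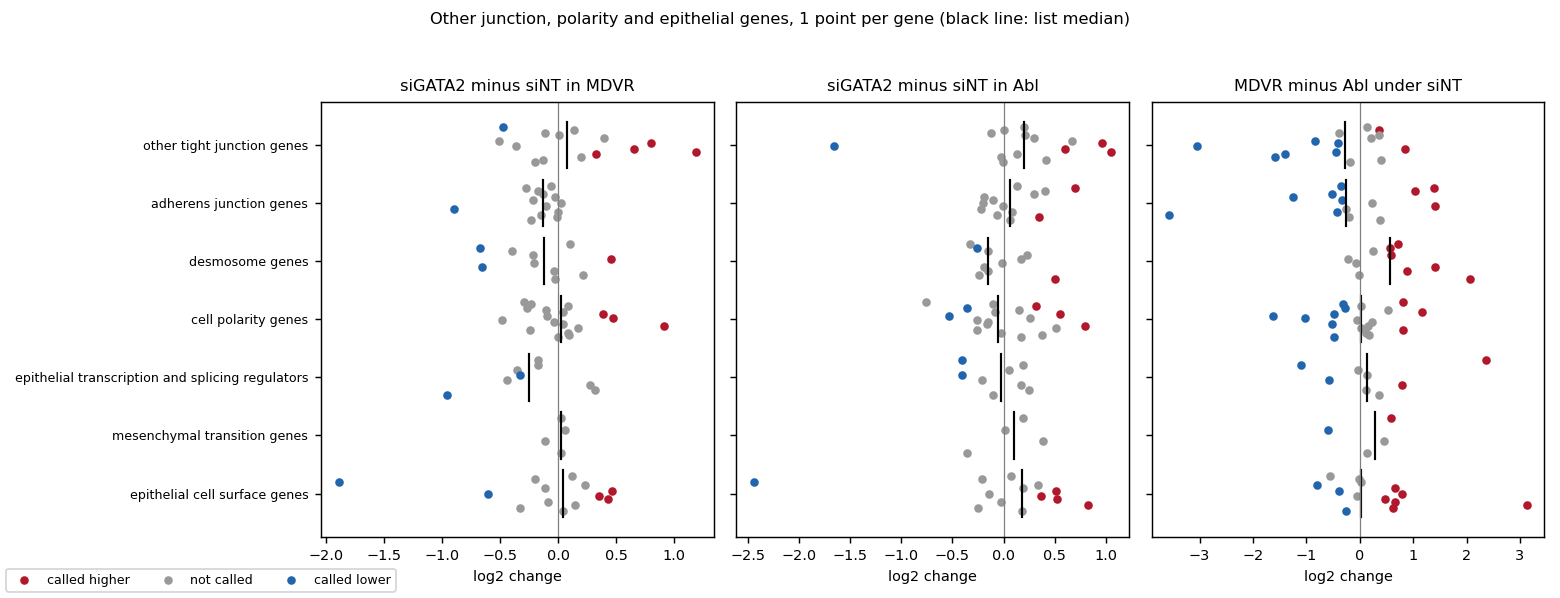
Log2 difference (x axis) of each measured gene by its main probe, in the junction, polarity and epithelial lists (y axis), with 1 panel each for siGATA2 minus siNT in MDVR, the same in Abl, and MDVR minus Abl under siNT. Points are genes, coloured by whether they were called, and black lines are list medians. Desmosome genes have their median at 0.57 in the panel for the lines, and tight junction genes theirs at -0.29.

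Between the lines under siNT, 48.9% of all genes were called, 24.4% higher and 24.5% lower in MDVR, as the plot of gene lists shows for the lists named here. These shares include genes detected in a single line. Desmosome genes were higher in MDVR at 6 of 10 and lower at 0, with a median of 0.57. DSC2 was higher by 2.07 (SE 0.12, adjusted p = 2.4e-11) and DSP by 1.41 (SE 0.12, adjusted p = 1.1e-08). Tight junction genes other than the members were higher at 2 of 14 and lower at 6, with a median of -0.29. CGN, cingulin, a cytoplasmic partner of ZO-1, differed by -1.59 (SE 0.08, adjusted p = 2.68e-12), its paralogue CGNL1 by -1.40 and CLDN8 by -3.05. TJP1, CGN and CGNL1 were thus all lower in MDVR. The claudins took both directions, with CLDN7 and CLDN23 higher, CLDN8 lower and CLDN4 not called. CLDN3, kept through MDVR alone, had to be higher there.

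Adherens junction genes were higher in MDVR at 3 of 13 and lower at 6, or 3 and 4 of the 11 detected in both lines. CDH3, P-cadherin, was detected on 0 of 6 MDVR arrays and on all 6 Abl arrays, and was at least 8.43-fold lower in MDVR under siGATA2 and at least 8.78-fold lower under siNT, a description with no test since it was kept through Abl alone. Among polarity genes 3 of 18 were higher and 7 lower, or 2 and 7 of the 17 detected in both lines. PALS1, the partner of LIN7 proteins, differed by -1.02 (SE 0.10, adjusted p = 9.78e-08) and PALS2 by -1.62, opposite in sign to LIN7A. The epithelial regulators gave 2 higher and 2 lower of 8, with OVOL2 higher in MDVR by 2.36 (SE 0.10, adjusted p = 7.05e-14). Of the 4 measured mesenchymal genes, VIM was higher by 0.58 at its main probe (adjusted p = 0.00204) and by 2.11 at its second (adjusted p = 4.72e-08), and SNAI2 differed by -0.60, a call lost without the detection filter (adjusted p = 0.061) and without Abl siNT replicate 3, MDVR siNT replicate 2 or MDVR siNT replicate 3.

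The genes whose profile over the 12 arrays was most like that of a member were found by Pearson correlation of main probes. Since the arrays form 4 groups in 2 lines, these correlations mostly describe group means. CLDN3 was closest to IRX4 (r = 0.9995) and MARCKS (r = 0.9994), and LIN7A to the same genes, MARCKS (r = 0.998) and IRX4 (r = 0.997). CLDN3 was not detected on any Abl array. Its profile and that of LIN7A are mainly a step between the lines, so these correlations describe that step. CDH1 was closest to PTK2 (r = 0.992) and RAB18 (r = 0.990), CLDN7 to UGT2B28 (r = 0.982) and ERMAP (r = 0.977), and TJP1 to SEPTIN11 (r = 0.980) and PPFIA2 (r = 0.977). EPCAM reached 0.880 with DNAJB2 and 0.859 with TMCO1, and CLDN4 0.858 with ZNF664 and 0.815 with C17orf107.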

How the data were processed

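RNA of 12 samples was measured on Illumina BeadChips. The deposited non-normalized table holds linear probe intensity for 47323 probes, with a deposited detection p-value per probe, a rank among 770 negative controls. The authors' processed log2 values, deposited for 23043 probes and made with lumi per the submitters' processing notes, have a median of 8.02 per array. Their settings are unknown here, and they served as an alternative.

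Intensities were corrected with limma 3.58.1 in R 4.3.3 (normexp using detection p-values, offset 16), quantile normalized and put on the log2 scale. A probe was kept if its detection p was under 0.05 on 3 or more arrays. Symbols came from a platform table of 16978 probes, 16973 with 1 symbol and 5 with several, and 6672 kept probes had no single symbol. A gene's main probe was its kept probe with the highest mean. A linear model of the 4 group means (8 residual degrees of freedom) with trended empirical Bayes moderation (11.2 prior degrees of freedom) gave 5 contrasts, adjusted by Benjamini-Hochberg over all kept probes. Precision is limited by the number of arrays: standard errors had a median of 0.166 for comparisons inside a line and 0.235 for the difference of effects. No arrays held identical values.

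On simulated data for the MDVR contrast, with 22539 probes fitted and 50 changed at each size, 36% of changes of 0.5, 82% of changes of 1, 72% of changes of -1 and 100% of changes of 2 (log2) were recovered. The real MDVR contrast called 3492 probes, far more than were changed in the simulation. The adjustment was therefore stricter in the simulation, and these rates need not hold for the data. Alternatives covered background, scaling, filters, probe choice, spread, array weights, samples in the fit, replicate number as a block, a minimum fold of 1.5 and each array left out. The naming rule took every member, GATA2, and up to 4 genes per list and comparison with the smallest adjusted p. Members and lists were chosen with earlier results of these data known.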

Additional observations from a re-analysis of the deposited data

Results flagged for a closer look

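CDH1 (probe ILMN_1770940) was the 1 member whose response to siGATA2 differed between the lines by a test of the difference itself. CDH1 was higher after siGATA2 by 0.72 in MDVR and by 1.21 in Abl, and the MDVR effect minus the Abl effect was -0.49 (SE 0.09, limma adjusted p = 0.00355). All 3 siGATA2 arrays lay above all 3 siNT arrays in each line. GATA2 RNA differed by -0.18 in MDVR (not called) and by -0.41 in Abl (called), and whether this bears on the CDH1 difference was not tested.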

How the results depend on the processing

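Over 50 member results and 28 alternative settings, 1335 values were obtained. Of these 1247 kept their sign and side of the threshold, 51 lost the call, 5 gained it and 32 changed sign, all of the 32 uncalled in both analyses and from 10 results whose main values lay between -0.16 and 0.02. No value called in either analysis changed sign. With a minimum fold of 1.5 (limma's treat), the count of member genes called of 7 was 0 in MDVR, 1 in Abl, 0 for the difference of effects and 3 for MDVR against Abl under siNT, against 4, 4, 1 and 5 without it, since that test asks for more than a fold of 1.5. Of all 22539 kept probes, treat called 206, 458, 76 and 2251 in these comparisons, in the same order. The 3 and the 5 for the lines include CLDN3, kept through MDVR alone. On the authors' processed values 2 genes were called for the difference of effects, LIN7A beside CDH1, and the cause was not tested. Leaving out 1 array gave 2 to 4 genes called in MDVR, the count of 2 without MDVR siNT replicate 2 (3 of the 10 probes, against 6), and 3 to 4 in Abl. The counts stayed at 1 for the difference of effects, 4 for the lines under siGATA2 and 5 under siNT, both of which include CLDN3, kept through MDVR alone. Without it they were 3 and 4. Deviations from the group means correlated at r = 0.112, 0.0126, 0.004 and 0.0822 for same-numbered arrays of a line. For same-numbered arrays of different lines r was -0.1693 to 0.0023. Arrays of different number were not compared, so whether the replicate numbers pair the samples cannot be told. With the replicate block within each line, which rests on replicates 2 and 3 of each group, 3 member genes were called in each line's siRNA comparison. For the difference 1 was called, and the block could not be fitted for the comparisons of lines. With the block across the groups these were also 3, 3 and 1, and the difference of effects had 300 calls over all probes, against 875. Scaling to a common median made 63.9% of calls between the lines under siNT and 63.6% under siGATA2 higher in MDVR, against 50.9% and 52.6% with quantile normalization. Signal over background limited CLDN4, LIN7A in Abl and CLDN3 in Abl.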
